A study of Caenorhabditis elegans with 22 samples.

Results

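The regions described here are 609 segments of 10 kb inside the chromosome arms of the nematode Caenorhabditis elegans that carried little Dam::EMR-1 methylation relative to GFP::Dam methylation in intestine of wild-type larvae. Each of the 5 autosomes was divided into 3 parts of equal length, and the outer parts are called arms. Islands were chosen by the wild-type ratio itself. A bin was taken as one when its midpoint lay in an arm and the log2 ratio of Dam::EMR-1 to GFP::Dam was below -1 in each of the 3 wild-type pairs of libraries. The ratio is log2((CPM + 1)/(CPM + 1)), with CPM the read count scaled by the library's nuclear total. Of 5504 arm bins 609 met the rule (11.1%), which is 6.07% of all 10030 nuclear bins. The remaining 4895 arm bins are called other arm bins.

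EMR-1 is the worm emerin, an integral protein of the inner nuclear membrane. Dam is a bacterial enzyme that methylates adenine in the DNA it touches, so Dam fused to EMR-1 marks DNA near the nuclear envelope, while Dam fused to GFP diffuses through the nucleus and marks accessible DNA. In this worm the arms of the autosomes are rich in repeats and histone H3 lysine 9 methylation and are known to lie at the envelope, and the centres are known to lie in the interior. CEC-4 is a chromodomain protein of the nuclear envelope that binds methylated H3 lysine 9 and anchors such chromatin there. MRG-1 is a chromodomain protein that associates with histone H3 lysine 36 methylation on active genes.

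The study compared Dam::EMR-1 with GFP::Dam in L1 larvae of 4 backgrounds, 22 libraries in all. The wild-type background had strains GW1377 (Dam::EMR-1) and GW1378 (GFP::Dam) on control RNAi, with 3 replicates. The mrg-1 RNAi background had the same strains fed mrg-1 RNAi, with 2 replicates, numbered 2 and 3; per the labels, replicate 1 was removed for technical reasons. The cec-4 background had strains GW1379 and GW1380, which carry the cec-4(ok3124) allele, on control RNAi, with 3 replicates. The mrg-1 RNAi cec-4 background had those strains on mrg-1 RNAi, with 3 replicates. All groups shared a FLP recombinase driven by the elt-2 promoter, which restricts the Dam fusions to intestine, a basal hsp-16.41 promoter without heat shock, 66 h of RNAi at 20 °C in the mothers and 2.5 h of liquid culture. Read counts of methylated DNA hold no measure of RNA, so the knockdown of mrg-1 was not checked here. The pairs of a replicate number were grown in parallel.

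Nuclear reads ranged from 2240348 to 11159999 per Dam::EMR-1 library and from 5016363 to 18553316 per GFP::Dam library. The median island held 21 to 142 reads in the Dam::EMR-1 libraries and 745 to 1791 reads in the GFP::Dam libraries. Up to 42 islands had no Dam::EMR-1 read in a library, so single low values are limited by counting. One island (chromosome I, 15060001 to 15070000, ce11) holds the ribosomal RNA genes rrn-1.1, rrn-2.1 and rrn-3.1. This single bin took 7.06% to 31.3% of all GFP::Dam reads and 0.626% to 1.84% of Dam::EMR-1 reads. Leaving it out of the library totals raised every GFP::Dam CPM by 0.11 to 0.54 on the log2 scale, and 691 arm bins then met the rule, among them all 609.

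Wild-type values chose the islands and are given as a description only. The bin nearest the threshold had a highest wild-type ratio of -1.00032 inside it and -0.996698 outside. There were 164 arm bins with a highest ratio between -1.5 and -1 and 190 between -1 and -0.5, so the edge of the set is not a gap in the values.

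The islands kept a low ratio in the 3 backgrounds that played no part in choosing them. The mean ratio over the islands was -3.08 ± 0.59 (SD, n = 2 pairs) with mrg-1 RNAi, -2.52 ± 0.27 (SD, n = 3) in cec-4 mutants and -2.88 ± 0.44 (SD, n = 3) in mrg-1 RNAi cec-4. The other arm bins had means of 1.12 ± 0.10, 1.10 ± 0.26 and 0.96 ± 0.25 in the same pairs. The island mean was below the mean of the other arm bins in all 8 pairs, with differences between -4.69 and -3.09 on the log2 scale.

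By pair, the island mean was -2.66 and -3.49 with mrg-1 RNAi, for replicates 2 and 3. It was -2.80, -2.27 and -2.48 in cec-4 mutants and -3.05, -2.38 and -3.20 in mrg-1 RNAi cec-4, for replicates 1 to 3. The wild-type pairs had -3.62, -2.60 and -3.35. In each background the pair numbered 2 was the least negative, and the groups overlap. The GFP::Dam libraries numbered 2 also had the smallest share of reads in the ribosomal RNA bin of their background, and the part of that share in the result was not tested.

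**Figure D1:**
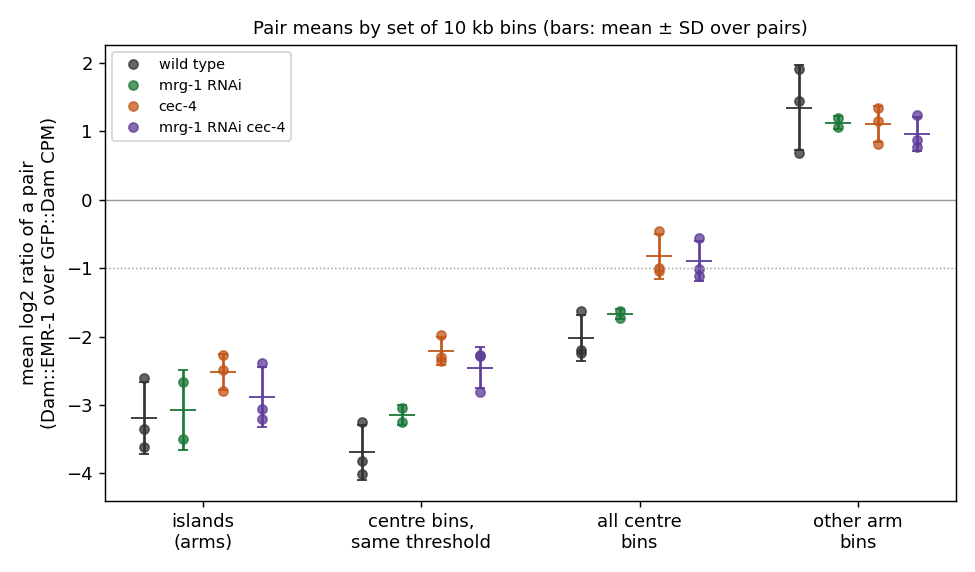
Mean log2 ratio of Dam::EMR-1 to GFP::Dam CPM (vertical axis) over 4 sets of 10 kb bins, with 1 point for each pair of libraries and the mean and SD over pairs as bars. The islands lie below -2 in all 11 pairs and the other arm bins lie above 0, and wild-type points of the islands and of the same-threshold centre bins are low because the threshold chose them.

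Of the 609 islands, 551 (90.5%) stayed below -1 in both mrg-1 RNAi pairs, 452 (74.2%) in all 3 cec-4 pairs and 497 (81.6%) in all 3 pairs in mrg-1 RNAi cec-4. Of the other arm bins, 4.68%, 3.23% and 5.76% did so. Since a library averages over many intestinal cells, a ratio in between cannot tell a contact in fewer cells from a weaker contact in each. All 8 pairs were below -1 in 412 islands (67.7%), and all 8 were below 0 in 554. No island was above 0 in all 8 pairs.

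Each island was also tested for Dam::EMR-1 against GFP::Dam within a background, with edgeR's quasi-likelihood test and Benjamini-Hochberg adjustment over 9960 bins, at an adjusted p of 0.05. With mrg-1 RNAi 422 of 609 islands were lower in Dam::EMR-1, where 21.1% of all tested bins were. In cec-4 the number was 471, against 20.3% of all bins. In mrg-1 RNAi cec-4 it was 481, against 22.9% of all bins. No island was called higher in any of the 3, where 18.5%, 21.1% and 23.7% of all bins were, and at an unadjusted p under 0.05 and by DESeq2 the number higher was also 0. Of the 4849 other arm bins tested, 96, 221 and 294 were called lower.

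The median fitted log2 ratio of the islands was -3.07 with mrg-1 RNAi, -2.83 in cec-4 mutants and -3.05 in mrg-1 RNAi cec-4, beside -0.06, 0.17 and 0.11 over all tested bins. The typical standard error of an island's fitted ratio was 0.99, 0.80 and 0.80. The call was made in all 3 backgrounds for 352 islands and in at least 1 for 539, which leaves 70 called in none. The same overlap was not counted over all bins, so these 3 numbers only describe the islands. The mrg-1 RNAi count rests on its replicate 3: it was 181 without the Dam::EMR-1 library of that replicate and 208 without its GFP::Dam library. The wild-type contrast, from the libraries that chose the islands, had 569 called lower, where 29% of all bins were.

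Choosing bins for low values in 3 pairs also picks bins that were low there by chance, so a part of the wild-type depth is built in. To show its size, the rule was applied to 2 wild-type pairs and the bins were read in the pair left out. This gave 767, 686 and 696 bins, with means of -2.85, -2.37 and -2.97 in the left-out pairs 1, 2 and 3. The 609 islands had -3.62, -2.60 and -3.35 in the same pairs. In the other backgrounds the 3 sets so chosen had means of -2.76, -2.89 and -2.89 with mrg-1 RNAi, -2.18, -2.37 and -2.38 in cec-4 mutants and -2.55, -2.73 and -2.74 in mrg-1 RNAi cec-4. On like bins the mean over the 3 cec-4 pairs was thus less low than the left-out wild-type pairs 1 and 3. It was equal to the left-out pair 2 to 2 decimals. This sets a mean over 3 pairs beside 1 pair, and the pairs numbered 2 were the least negative in each background. Pairs of the same number were not compared on these bins, so no difference between cec-4 and wild type is read from it.

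Applying the rule in the other backgrounds gave sets that shared most of their members with the islands. In cec-4 610 arm bins met it, of which 452 were islands (74.1% of that set and 74.2% of the islands), and their wild-type mean was -2.90 beside -2.77 in cec-4. With mrg-1 RNAi 780 bins met it in 2 pairs, and 551 were islands (70.6% and 90.5%), with a wild-type mean of -2.70 over the 780 beside -2.93 with mrg-1 RNAi. In mrg-1 RNAi cec-4 779 bins met it, and 497 were islands (63.8% and 81.6%), with a wild-type mean of -2.50 over the 779 beside -2.92 in mrg-1 RNAi cec-4. In each set the mean of the background that chose it is low by selection, so these pairs of means are not a comparison of backgrounds.

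The low ratio had 2 components, one in each fusion. In the Dam::EMR-1 libraries the median island had 7.95 to 29.7 CPM and the median other arm bin 58.7 to 107 CPM. In the GFP::Dam libraries the order was the opposite, with 93.4 to 153.6 CPM in islands and 22.5 to 55.3 CPM in other arm bins. The ranges of islands and other arm bins did not overlap in either fusion. They cover the wild-type libraries too, which chose the islands. Every end of a range was a library outside wild type, so the ranges are the same without it.

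On the log2(CPM + 1) scale the Dam::EMR-1 level of islands was below that of other arm bins by a mean difference of -2.36 ± 0.23 with mrg-1 RNAi (n = 2), -1.78 ± 0.22 in cec-4 (n = 3) and -1.86 ± 0.30 in mrg-1 RNAi cec-4 (n = 3; errors are SDs over libraries). The wild-type difference, which the rule shaped, was -2.61 ± 0.77. The GFP::Dam level was above that of other arm bins by 1.85 ± 0.45, 1.84 ± 0.26 and 1.98 ± 0.31, with 1.92 ± 0.37 in wild type. The GFP::Dam difference thus moved by less than its spread across the 4 backgrounds. Leaving out the ribosomal RNA bin, the islands held 11.5% to 16.0% of the GFP::Dam reads and 1.43% to 2.69% of the Dam::EMR-1 reads outside wild type. With the wild-type libraries, which chose the islands, the ranges were 11.5% to 16.2% and 1.05% to 2.69%.

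**Figure D2:**
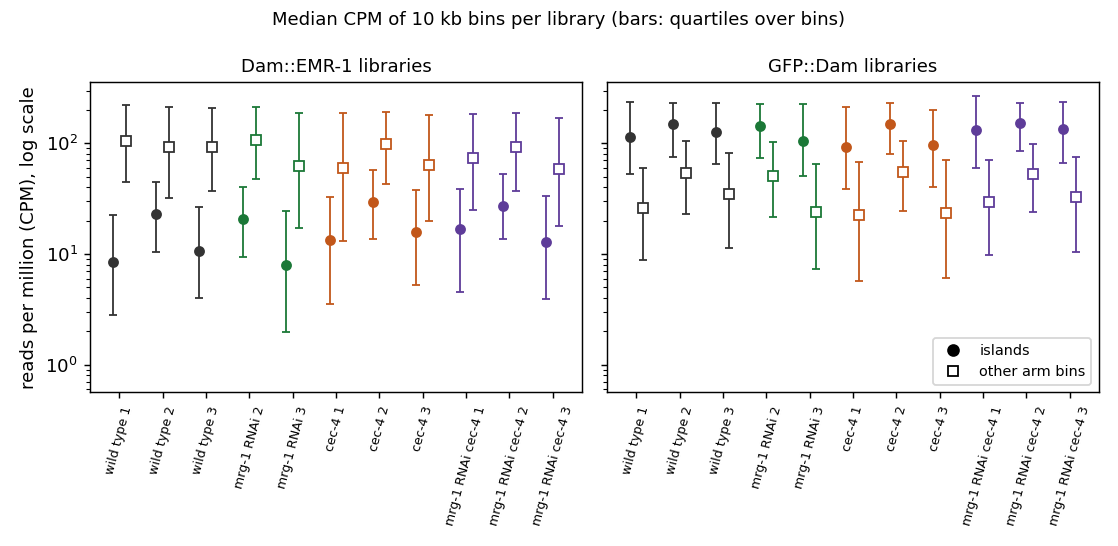
Median CPM per 10 kb bin (log axis) in each library, with quartiles over bins as bars, for islands (filled circles) and other arm bins (open squares). In the Dam::EMR-1 libraries islands have 7.95 to 29.7 CPM, below the other arm bins, and in the GFP::Dam libraries they have 93.4 to 153.6 CPM, above them.

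The islands with the highest GFP::Dam level after the ribosomal RNA bin were the bins of ret-1 and bcl-11. The bin of ret-1, the worm reticulon, averaged 1365 CPM over the 11 GFP::Dam libraries and had 40.2 to 208.3 CPM with Dam::EMR-1. The bin of bcl-11, a zinc finger gene, averaged 1253 CPM and had 47.3 to 204.2 CPM. The bin of gpb-1, which encodes a G protein beta subunit, averaged 1101 CPM with 15.3 to 128.3 CPM of Dam::EMR-1, and that of cbp-1, the CBP/p300 acetyltransferase, averaged 858 CPM with 3.12 to 40.9 CPM. For each of these 4 bins the lowest GFP::Dam library, between 352 and 880 CPM, lay above the highest Dam::EMR-1 library. The bins were picked for a high GFP::Dam level among islands, and the wild-type libraries that chose the islands are included. The gap between the fusions is thus favoured by the choice and is a description only.

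In the 2 comparisons between backgrounds that leave out wild type, neither edgeR nor DESeq2 called an island for a different ratio. For mrg-1 RNAi cec-4 against cec-4, 0 islands and 0% of all bins passed edgeR's test, and 9 islands (1.48%) had an unadjusted p under 0.05, beside 0.803% of all bins. For mrg-1 RNAi cec-4 against mrg-1 RNAi, 0 islands and 0% of all bins passed, and 13 (2.13%) had an unadjusted p under 0.05, beside 3.05% of all bins. The median difference over the islands was -0.05 in the comparison with cec-4, beside -0.02 over all bins. It was 0.19 in the comparison with mrg-1 RNAi, beside 0.17 over all bins. The standard error of a single island's difference was typically 1.04 and 1.17 on the log2 scale. In simulated data the edgeR fit found 1 and 0 of 50 bins changed by 2 on that scale. A count of 0 thus cannot exclude changes of that size. These comparisons share libraries with each other and are not independent.

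By fusion, the same 2 comparisons had 0 islands and 0% of all bins called by edgeR with either fusion. At an unadjusted p under 0.05 there were 27 and 51 islands with Dam::EMR-1 and 5 and 0 with GFP::Dam, for the comparisons with cec-4 and with mrg-1 RNAi. For Dam::EMR-1 these are 4.43% and 8.37% of the islands, near the 3.32% and 8.74% of all bins, and for GFP::Dam 0.821% and 0% beside 0.914% and 0.020%. DESeq2 called 5 islands lower in mrg-1 RNAi cec-4 than in mrg-1 RNAi with Dam::EMR-1, among 65 bins in all, and 0 in the other 3 cases.

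Comparisons with wild type start from the libraries that chose the islands, so they are described without being read as tests. The median difference of the ratio from wild type was 0.08 with mrg-1 RNAi, 0.40 in cec-4 mutants and 0.33 in mrg-1 RNAi cec-4, beside -0.02, 0.17 and 0.17 over all bins. No island and 0% of bins passed by edgeR in these 3 comparisons, and 14, 31 and 36 islands had an unadjusted p under 0.05. These are 2.30%, 5.09% and 5.91% of the islands, near the 1.89%, 5.53% and 7.35% of all bins. DESeq2 called 1 island higher, for mrg-1 RNAi cec-4, among 13 bins in all. For GFP::Dam alone no island passed in any of them by edgeR, where 0% of bins did, or by DESeq2, with 0, 2 and 0 islands at an unadjusted p under 0.05.

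For Dam::EMR-1 alone 4 islands were called higher in mrg-1 RNAi cec-4 than in wild type, and 0 lower, where 0.281% and 0.161% of all bins were. By edgeR 0 were called in the other 2 comparisons, with mrg-1 RNAi and in cec-4. Those 2 had 36 and 62 islands at an unadjusted p under 0.05 (5.91% and 10.2%, beside 4.91% and 10.6% of all bins). DESeq2 called 2 and 8 islands higher there, among 28 and 121 bins in all. The 4 islands called by edgeR in mrg-1 RNAi cec-4 were the bins of algn-9, pdcd-2, cku-80 and cpt-6, named after their values were seen. Reads in the bin of cku-80, the Ku80 subunit of DNA end joining, numbered 102, 190 and 165 in wild type and 1041, 1059 and 2726 in mrg-1 RNAi cec-4, a fitted log2 difference of 2.24 with a standard error of 0.42. In the bin of cpt-6, a carnitine palmitoyltransferase gene, there were 0, 1 and 0 reads in wild type and 18, 14 and 32 in mrg-1 RNAi cec-4. The bins of pdcd-2 and cku-80 are adjacent on chromosome III. The count of 4 became 0 without the Dam::EMR-1 library of wild-type replicate 1 or 3 or of mrg-1 RNAi cec-4 replicate 1 or 3, and 45 without that of wild-type replicate 2. With the replicate number as a block it was 21, 16 higher and 5 lower, where 2.83% and 2.33% of all bins were. DESeq2 called 24 higher and 5 lower, among 365 and 245 bins in all.

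Bins of the autosome centres under the same threshold give a comparison that was selected in the same way. There were 1330 such bins, with a wild-type mean of -3.69 ± 0.40. Their mean was -3.15 ± 0.15 with mrg-1 RNAi (n = 2), -2.21 ± 0.20 in cec-4 mutants and -2.45 ± 0.30 in mrg-1 RNAi cec-4 (n = 3). The islands lay above them by 0.50 ± 0.26 in wild type and below them in both cec-4 backgrounds, by a mean difference of -0.31 ± 0.29 in cec-4 mutants and -0.43 ± 0.33 in mrg-1 RNAi cec-4. With mrg-1 RNAi alone the difference was 0.07 ± 0.44. The island mean was lower than that of the centre bins in 2 of 3 cec-4 pairs and in 3 of 3 pairs of mrg-1 RNAi cec-4, and this difference between sets was not tested.

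All 8 pairs were below -1 in 67.7% of the islands and in 48.9% of the same-threshold centre bins. In cec-4 alone the shares were 74.2% and 58.2%. The 690 bins of the X chromosome under the same threshold had 414 bins with all 8 pairs below -1 and a share of 63.9% in cec-4. Centre bins as a whole, which no threshold chose, had a mean of -2.02 ± 0.34 in wild type and -0.83 ± 0.33 in cec-4.

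Islands were most frequent next to the chromosome centres. With each arm cut into 5 equal parts from the end inward, islands made up 5.17%, 7.80%, 5.55%, 11.8% and 25.1% of the bins. The innermost part held 275 of the 609 islands. By arm, the share of bins that were islands ran from 6.56% on the right arm of chromosome I to 17.4% on the left arm of chromosome III, and every one of the 10 arms held at least 33.

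The mean ratio of islands was read by position in the same 5 parts. The 275 innermost islands had -3.40 ± 0.48 in wild type, -3.05 ± 0.49 with mrg-1 RNAi, -2.29 ± 0.27 in cec-4 mutants and -2.56 ± 0.37 in mrg-1 RNAi cec-4. In cec-4 mutants the other 4 parts, from the chromosome end inward, had -2.39 ± 0.44, -3.18 ± 0.38, -2.89 ± 0.38 and -2.44 ± 0.20. In mrg-1 RNAi cec-4 they had -2.91 ± 0.51, -3.66 ± 0.55, -3.11 ± 0.49 and -2.91 ± 0.49. The outermost part and the one next to the innermost thus lay within 1 SD of the innermost in both backgrounds. The lower means were those of the second and the third part. These SDs are over pairs and include differences between replicate numbers, so they do not measure a difference between parts within a pair. In mrg-1 RNAi cec-4 the pairs ran from -3.26 to -2.35 in the part next to the innermost and from -2.91 to -2.17 in the innermost. With mrg-1 RNAi alone the 5 parts lay between -3.36 and -2.98, each within 1 SD of the innermost. In cec-4 67.3% of the innermost and 85.6% of the 334 other islands were called lower, beside 20.3% of all bins, and these differences by position were not tested.

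**Figure D3:**
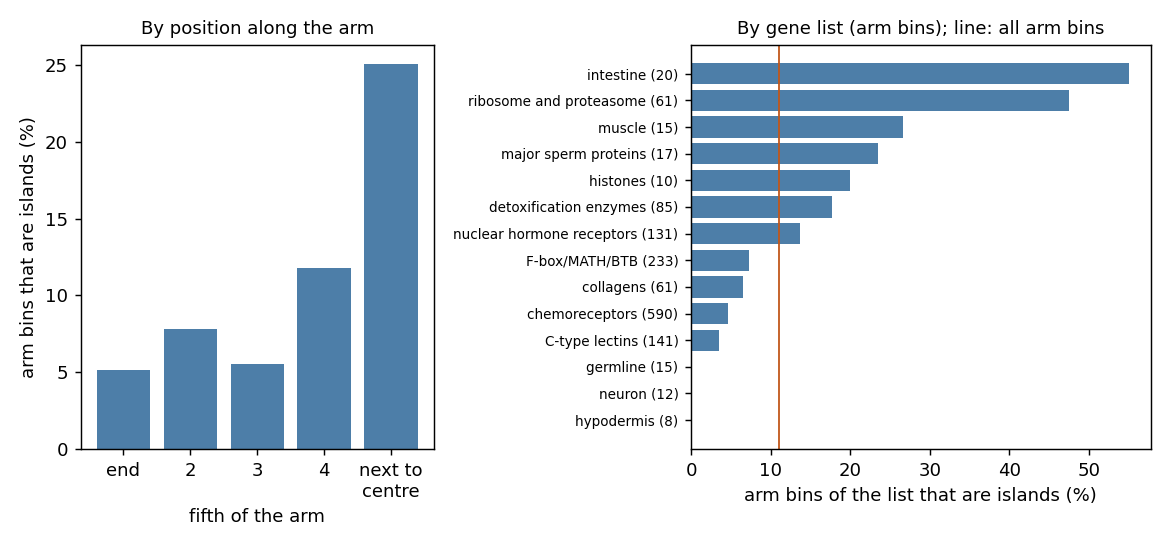
Share of arm bins that are islands, in percent, by part of the arm (left; 5 equal parts from the chromosome end to the border with the centre) and by gene list (right; the number of arm bins of each list in parentheses). The line marks the 11.1% of all arm bins, the innermost part stands at 25.1% and the intestine list at 55.0%. The gene lists were chosen with earlier results of these data known.

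The islands formed 330 runs of adjacent bins, of which 220 were single bins and 20 had at least 5 bins. Each of the 10 arms has 1 border with the centre, and 4 runs, all single bins, touched one. Runs were ended at that border, so low bins beyond it were not joined to them. Islands in the 20 long runs (165 bins) had means of -3.45 ± 0.45 with mrg-1 RNAi, -2.65 ± 0.12 in cec-4 mutants and -3.01 ± 0.49 in mrg-1 RNAi cec-4. Single islands had -2.64 ± 0.63, -2.25 ± 0.32 and -2.59 ± 0.38. With reads summed over each run, 242, 281 and 277 of the 330 runs were called lower by edgeR in the 3 backgrounds, where 19.5%, 20.1% and 21.8% of the 9681 bins and runs of that fit were. For mrg-1 RNAi cec-4 against cec-4 and against mrg-1 RNAi no run was called by edgeR, with 4 and 6 of the 330 runs at an unadjusted p under 0.05. The shares over all features of that fit were not counted. In the fit per bin they were 0.803% and 3.05% of all bins, so the 2 counts of runs are not read as a result. Runs were not tested against wild type.

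Outside the islands the ratio rose over several bins. Arm bins adjacent to an island, 10 kb away, had a mean ratio of -0.10 ± 0.11 with mrg-1 RNAi, 0.10 ± 0.22 in cec-4 mutants and -0.17 ± 0.13 in mrg-1 RNAi cec-4. At 20 kb the means were 0.66 ± 0.01, 0.80 ± 0.29 and 0.63 ± 0.22, and at 50 kb they were 0.88 ± 0.07, 0.94 ± 0.27 and 0.79 ± 0.22. The mean of the other arm bins was 1.12, 1.10 and 0.96 in the same backgrounds.

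At 1 kb resolution the log2 ratio of summed CPM in cec-4 was 0.75 ± 0.26 at 10 kb outside a border, 0.42 ± 0.22 at 6 kb, -0.36 ± 0.09 at 2 kb and -0.73 ± 0.15 in the last 1 kb outside. It was -1.69 ± 0.28 in the first 1 kb inside, -2.25 ± 0.39 at 3 kb and -2.22 ± 0.36 at 5 kb inside. The ratio thus fell over several kb across the border and was near level from 3 to 5 kb inside. Part of the fall follows from placing the borders by 10 kb bins. At 10 kb inside it was -3.39 ± 0.69, but over 220 bins of 1 kb instead of 658, since single islands do not reach that far. That value is thus from another set of islands. Over the same stretch GFP::Dam went from 8.59 CPM per 1 kb bin at 10 kb outside to 23 CPM at 5 kb inside, and Dam::EMR-1 from 14.4 to 5.00 CPM, both as means over the cec-4 libraries. The ribosomal RNA bin was left out of this profile.

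**Figure D4:**
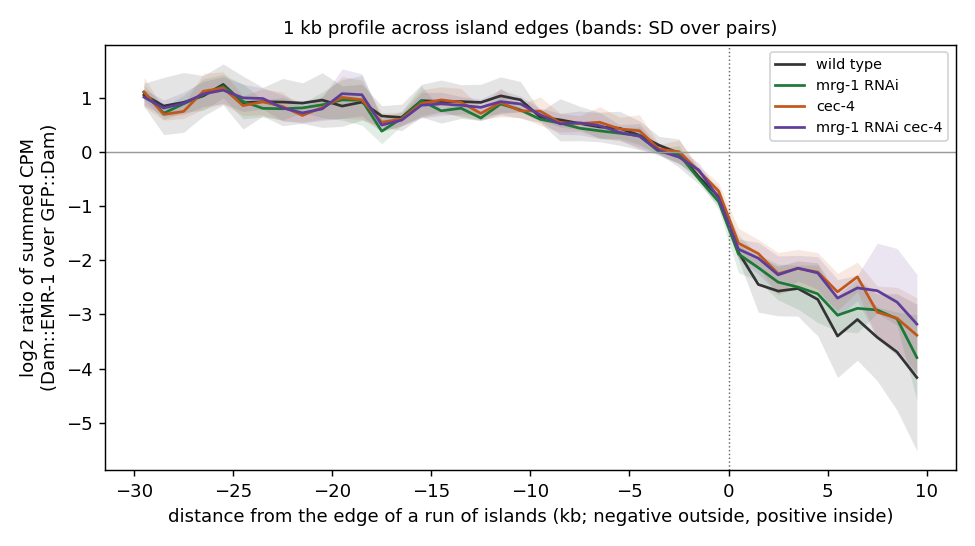
Log2 ratio of summed CPM of Dam::EMR-1 to GFP::Dam in 1 kb bins (vertical axis) by distance from the border of a run of islands in kb (horizontal axis; negative is outside), with 1 line per background and the SD over pairs as a band. In all 4 backgrounds the ratio lies above 0 from 10 kb outward and falls below -1 in the first 1 kb inside. Beyond 5 kb inside, runs of 2 or more bins remain, and wild type chose the islands.

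With at least 20 reads summed over the 16 libraries outside wild type, 4948 of the 6090 bins of 1 kb inside islands could be read. Of these 93.0% were below 0, with a median log2 ratio of -2.49, beside 23.3% and 1.3 in other arm bins. In 427 of the 609 islands every readable 1 kb bin was below 0, and in 8 fewer than 50% were. The wild-type libraries were left out of these 1 kb values.

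The longest run lay on the left arm of chromosome V (6330001 to 6580000) and spanned 25 bins. It holds 54 protein-coding genes, among them bcl-11 and gfi-1, zinc finger genes, unc-83, which encodes a KASH protein of the outer nuclear membrane needed for nuclear migration, and dpy-11, a thioredoxin-like gene needed for body shape. Its mean ratio was -3.32 and -4.56 with mrg-1 RNAi, -2.63, -2.63 and -2.05 in cec-4 mutants and -3.56, -2.70 and -3.67 in mrg-1 RNAi cec-4. All 8 values lay below -2. On its summed reads the fitted log2 ratio was -4.26 with a standard error of 0.81 (edgeR, adjusted p = 0.00103), -3.29 with 0.63 (adjusted p = 0.000676) and -3.51 with 0.64 (adjusted p = 0.000404).

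On chromosome III a run of 13 bins on the left arm (3760001 to 3890000) holds dpy-27, a condensin subunit of dosage compensation, brc-1, the BRCA1 orthologue, and tir-1, an innate immune adaptor. Its mean ratio was -3.27 and -3.66 with mrg-1 RNAi, -3.10, -3.04 and -3.18 in cec-4 mutants and -3.09, -2.88 and -3.15 in mrg-1 RNAi cec-4, so its 8 values were among themselves close. A run of 11 bins on the right arm (9610001 to 9720000) holds hlh-11, a basic helix-loop-helix factor, and tlk-1, a tousled-like kinase. Its cec-4 values were -3.45, -2.86 and -2.70, and those in mrg-1 RNAi cec-4 were -3.67, -3.01 and -4.38.

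On the right arm of chromosome I the longest run was 4 bins (10740001 to 10780000) over daf-16, the FOXO transcription factor of the insulin pathway. Its mean ratio was -2.77 and -4.99 with mrg-1 RNAi, -4.05, -2.20 and -2.50 in cec-4 mutants and -4.08, -2.52 and -3.33 in mrg-1 RNAi cec-4. On the left arm of chromosome I the run of 8 bins over anc-1, a KASH protein of nuclear anchorage, had -3.16 and -4.49, then -3.28, -2.85 and -2.66, then -2.60, -2.42 and -3.50 in the same order. Both stayed below -2 in every pair.

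On chromosome II the left-arm run of 8 bins from gst-7 to ulp-2, which also covers the glutathione transferase gene gst-9 and the Mediator gene mdt-4, had the least negative mean over the 8 pairs among the longest runs of the 10 arms. It had -2.71 and -3.18 with mrg-1 RNAi, but -1.35, -1.93 and -1.13 in cec-4 mutants and -1.05, -1.98 and -2.60 in mrg-1 RNAi cec-4. The 2 mrg-1 RNAi values lay below the 6 of the backgrounds with the cec-4 allele, and the wild-type pairs, which the rule used, had -2.90, -2.96 and -3.04. The difference in its ratio between mrg-1 RNAi cec-4 and mrg-1 RNAi was 1.04 with a standard error of 0.71 (edgeR, adjusted p = 1.00), so it was not called. The run on the right arm of chromosome V over ret-1 and npr-13 had -1.67 and -2.78 with mrg-1 RNAi and -1.72, -1.49 and -1.90 in cec-4. In mrg-1 RNAi cec-4 it had -3.42, -1.57 and -3.02. On its summed reads the fitted log2 ratio was -3.35, -3.67 and -3.04 in these backgrounds, with standard errors of 0.96, 0.80 and 0.78.

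The longest runs on chromosome IV covered trx-3, a thioredoxin gene, and dmd-6, a gene of the DM-domain family of sexual regulators. Over trx-3 all 8 pairs lay between -4.79 and -2.93. Over dmd-6 they lay between -6.74 and -2.81. The right-arm run of chromosome II over vha-6, a subunit of the proton pump of the gut's apical membrane, had -3.15 and -4.16 with mrg-1 RNAi. It had -2.34, -2.33 and -2.91 in cec-4 and -3.18, -2.42 and -4.39 in mrg-1 RNAi cec-4.

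The single islands with the lowest fitted ratio outside wild type included the bins of epc-1, an Enhancer of Polycomb homologue, and hlh-30, the worm TFEB. In the bin of epc-1 (chromosome III, 12600001 to 12610000) Dam::EMR-1 had 13 and 3 reads with mrg-1 RNAi, 8, 22 and 3 in cec-4 mutants and 11, 41 and 20 in mrg-1 RNAi cec-4. GFP::Dam had 1033 and 1961, then 1797, 1036 and 6053, then 1780, 1068 and 3332 reads there. The 2 fusions did not overlap, in a bin chosen for its low ratio in these same libraries. The fitted log2 ratios were -7.23, -7.54 and -5.76, with standard errors of 1.12, 0.92 and 0.84 and edgeR adjusted p-values of 0.000834, 0.000211 and 0.000203.

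In the bin of hlh-30 (chromosome IV, 4020001 to 4030000), which lies wholly inside the gene, Dam::EMR-1 reached 6.60 and 2.78 CPM with mrg-1 RNAi, 12.8, 15.4 and 3.02 CPM in cec-4 mutants and 30.9, 20.8 and 4.39 CPM in mrg-1 RNAi cec-4. GFP::Dam reached 342 and 655, then 537, 418 and 584, then 698, 420 and 556 CPM. Every GFP::Dam value was more than 10 times the highest Dam::EMR-1 value, in a bin also chosen by these values. Other islands of this group were the bins of lelo-2, dmd-6, ncx-7, a sodium/calcium exchanger gene, pes-4, dmd-7 and nhr-88, a nuclear hormone receptor gene, and 2 bins without a named gene. Their fitted means over the 3 backgrounds lay between -6.75 and -5.41. Some held few Dam::EMR-1 reads, so their values are limited by counting. Summed over replicates, the bin of ncx-7 had 2, 7 and 4 such reads in the same order of backgrounds. Its standard errors were 1.90, 1.43 and 1.55, and its mean pair ratio was -3.45, beside a fitted mean of -5.94. The bin of lelo-2 had 10, 17 and 4 reads and that of pes-4 had 4, 11 and 5. Their mean pair ratios were -4.48 and -4.05. The bin of dmd-6 had more, with 32, 198 and 483 reads.

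At the other end, 10 islands were chosen for the highest fitted ratio outside wild type. The highest was the bin of npp-5, a nucleoporin gene (chromosome II, 11590001 to 11600000), with ratios of -1.14 and 1.22 with mrg-1 RNAi, -1.04, -0.80 and -0.14 in cec-4 mutants and -0.42, 3.68 and 0.40 in mrg-1 RNAi cec-4. Those values span both signs within 2 of the 3 backgrounds. The bin of cku-80 had -0.54 and 0.66, then 0.23, -0.09 and 0.65, then 1.17, 0.42 and 0.62, in the same order, and its wild-type values were -1.86, -1.74 and -1.05. The bins of app-1, an aminopeptidase P gene, myrf-1, the myelin regulatory factor homologue, cdh-4, a Fat-like cadherin gene, ztf-18, ret-1 (its first bin, 14820001 to 14830000), vti-1, a SNARE gene, nrde-2, a nuclear RNAi gene, and 1 bin without a named gene made up the rest. Their fitted means lay between -0.61 and 0.15, and none of the 10 was called in any of the 3 backgrounds. The bins were chosen by these same fitted values, so both statements follow largely from the choice.

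Across the 609 islands the fitted ratio varied with a range of -6.84 to 0.58 and a median of -3.02 in the mean of the 3 backgrounds. Pearson's r across islands was 0.68 between mrg-1 RNAi and cec-4, 0.67 between mrg-1 RNAi and mrg-1 RNAi cec-4 and 0.77 between cec-4 and mrg-1 RNAi cec-4, and Spearman's rho was 0.68, 0.68 and 0.77. Bins are not independent replicates, and neighbouring bins share chromatin, so these are descriptions.

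**Figure D5:**
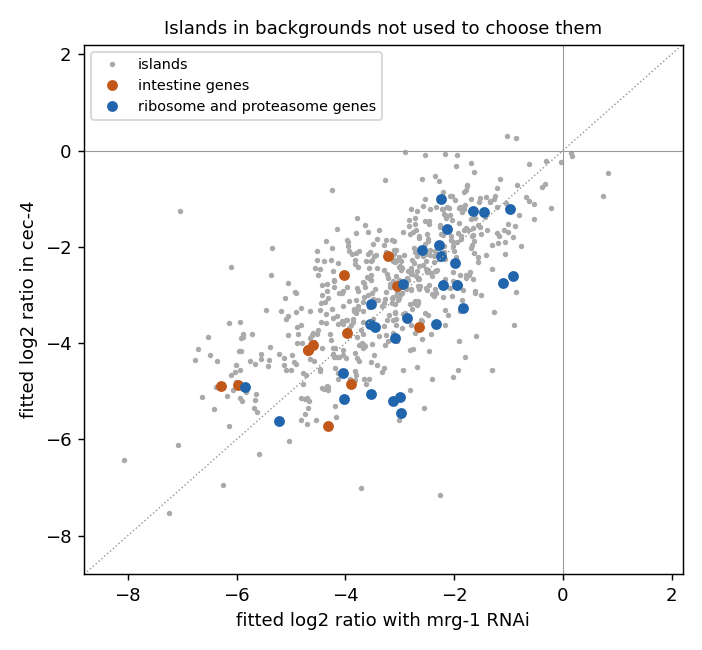
Fitted log2 ratio of Dam::EMR-1 to GFP::Dam of each of the 609 islands with mrg-1 RNAi (horizontal axis) and in cec-4 (vertical axis), with bins of genes on the intestine list in orange and of ribosome and proteasome genes in blue, and a dotted line of equality. Nearly all islands lie below 0 on both axes, and all 11 bins of intestine genes lie below -2 on both.

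The authors' deposited table of log2 ratios, 1 column per background, gave the same order for these bins. In the authors' deposited table the islands averaged -3.10 in wild type, -3.02 with mrg-1 RNAi, -2.51 in cec-4 mutants and -2.82 in mrg-1 RNAi cec-4. Values below 0 were listed in the authors' deposited table for 604, 592 and 598 of 609 islands in the last 3.

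Islands held 2.17 protein-coding genes per bin by gene midpoint, other arm bins 1.91 and centre bins 2.39. The islands had more than the other bins of the same arm in 9 of 10 arms. Of their 1320 protein-coding genes 63.0% carried a standard gene symbol, beside 55.3% in other arm bins and 58.9% in centre bins, and again the islands were higher in 9 of 10 arms. Pseudogenes numbered 12.6 per 100 islands, beside 27.1 in other arm bins and 13.4 in centre bins. Small nucleolar RNA genes numbered 6.57 per 100 islands, beside 2.68 in other arm bins and 5.16 in centre bins. Centre bins under the same threshold had 7.59, so this number was not particular to the islands. The share of bases covered by genes was 64.8% in islands and 62.7% in other arm bins, with the islands higher in 6 of 10 arms. None of these differences was tested.

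Chromosome IV carries the large piRNA clusters of this species. Islands held 773 annotated piRNA genes and other arm bins 12704. Of the 773, 567 lay in the 61 islands of the right arm and 176 in the 59 islands of the left arm of chromosome IV. The other arms had at most 9 piRNA genes in their islands.

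Intestine genes were the list with the largest share of arm bins that were islands, 11 of 20 bins (55.0%), beside 11.1% of all arm bins. All 11 were called lower by edgeR in each of the 3 backgrounds, with a median fitted ratio of -4.02, -4.04 and -3.82. Of all islands 69.3%, 77.3% and 79.0% were called, and of all bins 21.1%, 20.3% and 22.9%. The gene lists were chosen with earlier results of these data known, so these shares are descriptions only. The 11 bins hold 12 genes of the list. Genes of the brush border were act-5, its microvillar actin, eps-8, an actin-capping protein, and ifc-1, an intermediate filament protein. Transport and junction genes were vha-6, pgp-1, a P-glycoprotein, and inx-16, a gap junction protein of the gut. Genes of digestion and metabolism were asp-1, an aspartic protease, cpr-3 and cpr-4, cathepsin B-like proteases, fat-6, a stearoyl-CoA desaturase, and mtl-2, a metallothionein, whose bin also holds end-3, a GATA factor of the endoderm lineage.

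In the bin of asp-1 (chromosome V, 19050001 to 19060000) GFP::Dam gave 357 and 1182 CPM with mrg-1 RNAi, 1072, 251 and 1018 CPM in cec-4 mutants and 665, 248 and 593 CPM in mrg-1 RNAi cec-4. Dam::EMR-1 gave 23.8 and 62.6, then 32.0, 19.5 and 12.1, then 44.4, 15.7 and 11 CPM. The fitted log2 ratios were -4.32, -5.72 and -4.70 with standard errors of 1.32, 1.15 and 1.10 (edgeR, adjusted p = 0.0156, 0.00101 and 0.00235). The fusions did not overlap, and the GFP::Dam level was lowest in the libraries numbered 2 in each background.

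The bin of act-5 (chromosome III, 13600001 to 13610000) had pair ratios of -2.39 and -4.26 with mrg-1 RNAi, -5.74, -1.76 and -5.32 in cec-4 mutants and -4.22, -2.03 and -4.50 in mrg-1 RNAi cec-4. Here too the pairs numbered 2 were the least negative. The bin of mtl-2 and end-3 (chromosome V, 14010001 to 14020000) had -4.26 and -4.91, then -5.06, -2.78 and -3.85, then -5.79, -2.72 and -3.51. That of ifc-1 (chromosome V, 2880001 to 2890000) had -2.58 and -3.33, then -2.95, -1.92 and -2.23, then -3.08, -2.13 and -2.58, the narrowest range of the 3.

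In the bin of fat-6 (chromosome IV, 11910001 to 11920000) Dam::EMR-1 had 28 and 1 reads with mrg-1 RNAi, 7, 37 and 88 in cec-4 mutants and 18, 48 and 257 in mrg-1 RNAi cec-4. GFP::Dam had at least 722 reads there in each of these 8 libraries. Its fitted ratio was -6.28, -4.89 and -3.90, and the groups overlapped in their pair ratios, which ran from -7.76 to -2.97.

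Ribosomal and proteasomal genes were in 29 islands of 61 arm bins of their list (47.5%). Of the 29 bins 18 were called lower with mrg-1 RNAi, 27 in cec-4 mutants and 19 in mrg-1 RNAi cec-4, with median fitted ratios of -2.59, -3.19 and -2.97. The shares called over all islands were 69.3%, 77.3% and 79.0%. The deepest were the bins of the large-subunit genes rpl-4, at -5.84, -4.91 and -4.11, and rpl-27, at -5.21, -5.63 and -4.69, all called by edgeR with adjusted p-values of 0.00242 or less. The proteasome lid gene rpn-8 had -3.54, -5.07 and -3.75, all called. The shallowest was rpl-18A at -0.98, -1.22 and -0.41, with no call. On chromosome III the list had rpl-13A at -3.54, -3.60 and -3.55, rpl-3 at -3.13, -5.20 and -4.53, and rpl-37.2 and rps-3A, each with at least 1 call.

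Of the lists for other tissues, 4 of 15 arm bins with muscle genes were islands, holding pat-10, a troponin C, lev-11, tropomyosin, pat-3, a beta integrin, and unc-60, cofilin. The bin of unc-60 had a fitted ratio of -4.68 in mrg-1 RNAi cec-4, and that of pat-10 -1.29. None of the 12 arm bins with neuron genes, the 8 with hypodermis genes and the 15 with germline genes was an island. These lists are small, and no test was made.

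Of all arm bins 11.1% were islands, and the large gene families of the arms lay on both sides of that share. Chemoreceptor genes were in 27 islands of 590 arm bins (4.58%), C-type lectins in 5 of 141 (3.55%), collagens in 4 of 61 (6.56%) and F-box, MATH and BTB genes in 17 of 233 (7.30%). Nuclear hormone receptors were in 18 of 131 (13.7%) and detoxification enzymes in 15 of 85 (17.6%). Of the 27 chemoreceptor islands 16, 17 and 18 were called lower in the 3 backgrounds, with medians of -2.81, -2.58 and -2.64. Over all islands the medians were -3.07, -2.83 and -3.05 and the numbers called 422, 471 and 481 of 609.

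Histone genes were in 2 islands of 10 arm bins. One, on chromosome II (13820001 to 13830000), holds 10 of them, from his-9 to his-44, and had fitted ratios of -3.96, -3.52 and -3.29, all called by edgeR with adjusted p-values of 0.0409, 0.0216 and 0.0258. Major sperm protein genes were in 4 of 17. The bin of msp-32 and msp-33 was called with mrg-1 RNAi at -2.53 (edgeR, adjusted p = 0.00539) and not in cec-4, at -0.10 (adjusted p = 0.888), a difference that was not tested. Both families have copies of almost the same sequence, between which reads may be split, so these values are uncertain.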

How the data were processed

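Read counts of 22 DamID libraries were analysed. The authors deposited whole-number read counts per bin of 10 kb and of 1 kb and tables of log2 ratios per background; the genome build is ce11, per the submitters' processing notes, and the sources used here name neither the aligner nor the treatment of reads with several matches. Reads of the mitochondrial genome were left out of library totals. Genes came from the RefSeq annotation of the same assembly (WBcel235), matched by coordinates.

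CPM, log2 ratios with a pseudocount of 1 CPM and their means were computed from the counts, and pairs joined the 2 fusions of a background and replicate number. edgeR 4.0.16 (TMM scaling, filterByExpr, quasi-likelihood test, limma 3.58.1, R 4.3.3) was fitted to all 22 libraries in 8 groups, and p-values were adjusted by Benjamini-Hochberg over the 9960 bins that passed the filter. All 609 islands passed it. Standard errors are the log2 change divided by the root of the F statistic. The fit was tested on simulated data with 50 changed bins per size of change. For the ratio within cec-4 it recovered 0, 6, 25 and 46 of 50 at log2 changes of 1, 2, 3 and 5. For mrg-1 RNAi cec-4 against cec-4 it recovered 0, 1, 8 and 34. Against mrg-1 RNAi it recovered 0, 0, 6 and 22. Alternatives were DESeq2 1.42.0, library-size scaling, no filter, fits per background, a replicate block, each library left out, other thresholds, pseudocounts and arm widths, and, chosen after seeing the data, totals and fits without the ribosomal RNA bin, same-threshold sets, sets chosen in other backgrounds and reads summed per run.

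The members and the gene lists were chosen with earlier results of these data known, so no p-value is given for the set or for a list. Bins were named by rule: the longest run per arm, the 10 lowest and 10 highest fitted means outside wild type, and bins of the intestine and ribosome and proteasome lists; other bins are examples chosen after their values were seen. Replicate numbers mark strains grown in parallel, per the labels. Libraries of the same number deviated together with a correlation above 0.1 in 15 of 15 comparisons for GFP::Dam and 12 of 15 for Dam::EMR-1. The labels call the replicates biological. No genome sequence was used, so sites of Dam methylation per bin were not counted. Errors printed as SDs or standard errors include the variation between replicates.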

Additional observations from a re-analysis of the deposited data

How the results depend on the processing

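The number of islands was 335 with a threshold of -2 and 281 with arms as the outer parts of autosomes cut into 4, and 686 to 767 with 1 wild-type pair left out. With those smaller sets 280 and 195 islands were called lower with mrg-1 RNAi, 293 and 241 in cec-4 mutants and 295 and 244 in mrg-1 RNAi cec-4, since fewer bins were counted. Leaving out 1 library gave 181 to 362 calls with mrg-1 RNAi, 392 to 448 in cec-4 mutants and 412 to 461 in mrg-1 RNAi cec-4. The replicate block gave 500, 520 and 535, where 2681, 2488 and 2801 of all 9960 bins were called lower. Without the block 2102, 2018 and 2285 of all bins were, so the rise was not particular to the islands. The block moved 1 other count, that of Dam::EMR-1 in mrg-1 RNAi cec-4 against wild type, from 4 to 21. That count was also 1 with library-size scaling, 29 with DESeq2 and 0 to 45 with 1 library left out, and the cause was not tested. DESeq2 gave counts other than 0 in 4 contrasts where edgeR gave 0: for Dam::EMR-1, 2 for mrg-1 RNAi and 8 for cec-4 against wild type and 5 for mrg-1 RNAi cec-4 against mrg-1 RNAi, and for the ratio 1 for mrg-1 RNAi cec-4 against wild type. With 1 library left out, a count of 0 reached 12 and 21 for Dam::EMR-1 of mrg-1 RNAi (without its replicate 2) and of cec-4 (without wild-type replicate 2) against wild type, and 15 for mrg-1 RNAi cec-4 against mrg-1 RNAi (without mrg-1 RNAi replicate 2). The ratio contrasts reached 1, 4 and 3 for mrg-1 RNAi and mrg-1 RNAi cec-4 against wild type and mrg-1 RNAi cec-4 against mrg-1 RNAi; in each case the library left out was a Dam::EMR-1 library numbered 2. A group left with 1 library is assumed to vary like the others. Shares over all bins were not counted for the fits with 1 library left out. The island mean in cec-4, -2.52, was -2.14 with a pseudocount of 5 CPM, -3.41 on summed counts and -2.85 with totals without the ribosomal RNA bin. No result reversed. Depth limits single islands, since the median island held as few as 21 Dam::EMR-1 reads in a library.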
